A study of Homo sapiens with 23 samples.

Results

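The regions described here are 21158 distal binding sites of the transcription factor YY1 that carried no OCT4 peak in NCCIT cells, a human embryonal carcinoma line with pluripotent features. They are peaks of the YY1 no doxycycline replicate 1 library that shared at least 1 bp with a peak of replicate 2. Their summit, the position of highest signal, lay over 1000 bp from every annotated transcription start site (TSS), and they overlapped neither an OCT4 no doxycycline peak nor 1 of the 751 listed SVAs. Of the 56370 peaks in replicate 1, 40071 were shared with replicate 2 and 21158 of those met the rule. The other shared sites were 6067 distal sites with an OCT4 peak, 6814 promoter sites without and 5798 promoter sites with one, 66 sites overlapping a listed SVA and 168 on contigs without an annotated TSS. Because YY1 and OCT4 peaks of the untreated cells chose the sites, their values in those libraries are given as a description and were not tested. All coordinates are of hg19.

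YY1 is a zinc finger protein of every cell type that binds a short motif around the letters CCAT and can act as an activator or as a repressor. It recruits chromatin regulators such as the INO80 remodeler and Polycomb proteins, and it joins promoters and enhancers by forming dimers. OCT4, encoded by POU5F1, is a homeodomain factor that maintains pluripotency, and H3K9me3 is the histone mark of silenced heterochromatin and of repressed transposons.

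The cells were SCi-NCCITs, NCCITs that carry a doxycycline-inducible dCas9-KRAB and 2 sgRNAs that target SVAs, both integrated with piggyBac. SVAs are composite retrotransposons found in hominoids, and dCas9-KRAB is a catalytically inactive Cas9 fused to a repressor domain that leads to H3K9me3 where a guide binds. SCi-NCCITs without doxycycline were compared with SCi-NCCITs given 2 µg/mL doxycycline for 72 hours. YY1 and H3K9me3 had 2 libraries per condition, OCT4 had 1 and RNA had 3, and H3K9me3 was also measured in 1 library of parental NCCITs that lack dCas9-KRAB. No library of cells with doxycycline alone was analysed here, so effects of the drug and of dCas9-KRAB cannot be told apart. Nothing in the labels says that replicates came from separate cultures, so the p-values measure only the spread between these samples, which may be technical.

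The peak lists held 56370 and 76098 YY1 peaks without and 82005 and 115673 with doxycycline, 123014 to 181332 H3K9me3 peaks, and 50775 OCT4 peaks without and 23352 with doxycycline. They give no read depth, so the depth behind a peak is unknown. RNA libraries held 15305909 to 49878613 estimated counts, the lowest being no doxycycline replicate 1. All 10 pluripotency markers were expressed in every RNA library, summing to 3140 to 3423 CPM (counts scaled to the library total) without and 2543 to 2809 CPM with doxycycline. Of the 66 shared sites at listed SVAs, 18 and 7 carried an H3K9me3 peak without and 61 and 60 with doxycycline.

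The windows of 201 bp around the summits of the 4 strongest sites are shown because they hold the YY1 core motif. They are given on the + strand, and capitals mark matches to the YY1 core GCCATNTT on either strand. The GNG13 site spans chr16:856842-858798 and its window is chr16:857793-857993. The PEG3 site spans chr19:57348219-57352539 and its window is chr19:57350297-57350497. The BAK1 site spans chr6:33538397-33540015 and its window is chr6:33539094-33539294. The SPACA5 site spans chrX:47879840-47881459 and its window is chrX:47880374-47880574.
GNG13 site: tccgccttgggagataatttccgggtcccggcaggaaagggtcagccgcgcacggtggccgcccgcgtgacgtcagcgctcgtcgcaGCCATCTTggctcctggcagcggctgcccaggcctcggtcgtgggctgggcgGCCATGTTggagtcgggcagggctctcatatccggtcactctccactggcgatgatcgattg
PEG3 site: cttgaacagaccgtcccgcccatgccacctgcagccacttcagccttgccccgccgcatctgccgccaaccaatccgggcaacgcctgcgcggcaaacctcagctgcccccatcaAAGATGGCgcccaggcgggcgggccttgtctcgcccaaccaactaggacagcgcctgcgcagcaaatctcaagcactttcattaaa
BAK1 site: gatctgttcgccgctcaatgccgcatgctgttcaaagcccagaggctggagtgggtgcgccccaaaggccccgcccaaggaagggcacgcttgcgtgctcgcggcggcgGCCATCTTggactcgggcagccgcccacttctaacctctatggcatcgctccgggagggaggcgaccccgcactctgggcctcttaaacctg
SPACA5 site: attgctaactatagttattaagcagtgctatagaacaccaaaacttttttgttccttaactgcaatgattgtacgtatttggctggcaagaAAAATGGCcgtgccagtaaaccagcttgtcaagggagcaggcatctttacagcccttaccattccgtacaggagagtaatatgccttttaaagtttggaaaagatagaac

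Each site is named after the gene of the nearest TSS. The GNG13 window holds 2 cores and the other windows hold 1 each. Over the whole peak, the PEG3 site holds 12 cores in 4321 bp and the ENSG00000231612 site, in an intron of KIF26B, holds 13 in 2045 bp. PEG3 is an imprinted gene transcribed from the paternal allele, and its site lies in an intron shared with ZIM2. The BAK1 site lies in an intron of GGNBP1, the SPACA5 site in an intron of ZNF630, and the GNG13 site is intergenic.

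The YY1 core was found within 100 bp of the summit at 50.6% of the 21158 sites. The share was 24.2% at distal sites with OCT4, 29.2% at promoter sites without OCT4 and 4.22% of the 14221866 windows of the same length that tile the genome. The shorter form AAGATGG, which overlaps the core, was found at 34.2% of sites, against 15.6% and 19.8% of the other classes and 4.05% of the genome. The long form AAGATGGCG was found at 7.84%, which was close to the 7.75% of promoter sites and above the 1.94% of distal sites with OCT4 and the 0.0674% of the genome. Distal sites without OCT4 thus held the core more often than either other class in these counts, and no test was made of the difference.

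The core often sat close to the summit. It lay within 20 bp of the summit at 25.8% of sites, within 50 bp at 41.1% and within 500 bp at 68.8%. The median distance was 33.5 bp among the sites that held one. A smaller rise lay farther out, with 1.67% of sites at 400 to 420 bp and 1.95% at 420 to 440 bp, against 0.317% at 280 to 300 bp. Distal sites with OCT4 also had it, at 1.40% and 2.11%. No genome share was counted for 500 bp. At distal sites with OCT4 the share within 500 bp was 41.9% and the median distance was 64.5 bp. At promoter sites the share was 37.6% and the median distance was 21.5 bp.

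**Figure D1:**
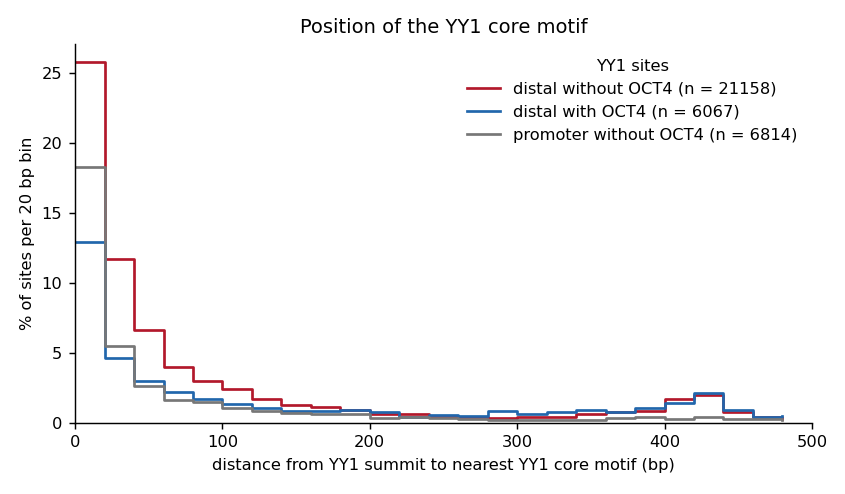
Share of YY1 sites (vertical axis, % per bin of 20 bp) by the distance from the summit to the nearest YY1 core GCCATNTT (horizontal axis, bp), for distal sites without OCT4 (red), distal sites with OCT4 (blue) and promoter sites without OCT4 (grey). The first bin holds 25.8% of the distal sites without OCT4, 12.9% of those with OCT4 and 18.3% of the promoter sites.

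Motifs of other factors were counted in the same windows on both strands. The octamer ATGCAAAT, the motif of OCT4 and its relatives, was found at 1.59% of sites, against 5.88% of distal sites with OCT4 and 2.04% of the genome. The GC box GGGCGG of Sp-type factors was found at 6.94% of sites, against 37.7% of promoter sites, 9.63% of distal sites with OCT4 and 2.90% of the genome. The ETS motif CCGGAAG was found at 1.08% of sites and 7.26% of promoter sites, with 0.469% of the genome. The motif of CTCF, which anchors chromatin loops, was found at 0.941% of sites, against 0.610% and 0.646% in the other classes and 0.0354% of the genome. The AP-1 motif TGACTCA stood at 2.76% (genome 3.07%), the TEAD motif GGAATG at 12.3% (10.7%), the E-box CACGTG at 2.28% (1.83%), the CCAAT box at 21.6% (27.6%) and the NRF1 motif CGCATGCG at 0.0284% (0.0211%). The median GC content of the windows was 47.8% in both distal classes and 61.2% at promoter sites. A match is a description of the letters and not a measured binding event.

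Many of the sites share whole stretches of sequence. Stretches of 24 bases that recur around the summits were ranked by the number of sites that hold them, each site being counted once, under the first stretch it holds. The first 20 stretches covered 4605 sites, 21.8% of all. Those that carry the results are printed, with capitals on the YY1 core where one is present.
L1 stretch 1: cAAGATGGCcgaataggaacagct
L1 stretch 2: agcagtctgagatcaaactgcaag
L1 stretch 19: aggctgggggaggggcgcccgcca
Alu stretch 3: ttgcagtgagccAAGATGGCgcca
Stretch 20: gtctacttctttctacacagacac

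Stretches 1, 2 and 19 are parts of L1, a LINE retrotransposon, and stretch 3 is a part of Alu, a SINE. The names were given by hand from the known sequences of these elements after the counts had been seen, since no repeat annotation was used. Stretch 1 was held by 1069 sites. It occurs 2792 times in hg19, and 78.8% of those copies lay under a shared YY1 peak. Stretch 2 was held by 820 further sites and occurs 3593 times, with 59.1% of copies under a shared YY1 peak. Stretch 19 has the highest such share, 84.6% of 1543 copies. The L1 stretches lie near each other, and within 1000 bp of the summit 54.1% of the sites with stretch 1 also held stretch 2.

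Stretch 3, an Alu sequence with the letters AAGATGGC, occurs 1302 times and 48.5% of its copies lay under a shared YY1 peak. Altogether, 1 of 7 L1 stretches was found around 12.7% of sites, against 8.08% of distal sites with OCT4 and 1.67% of promoter sites. For the 8 Alu stretches the shares were 6.73%, 2.54% and 2.55%.

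Sites were sorted into 4 exclusive sets on this basis, called L1-type (2690), Alu-type (1355), guide-match sites (242) and other sites (16871). Guide-match sites have a match to either sgRNA with at most 3 mismatches beside an NGG PAM within 500 bp of the summit. Of the 70 sites counted under stretch 20, 69 had such a match. L1-type sites were the farthest from genes, with a median of 24252 bp to the nearest TSS, against 12399 bp over all sites, and the widest, with a median of 847 bp against 500 bp. Of all sites, 56.0% lay in introns, 39.2% between genes, 3.42% in exons outside coding sequence and 1.41% in coding exons.

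In the untreated cells the mean fold enrichment of a site over its 2 YY1 libraries, the ratio of signal to local background at the summit, had a median of 6.28 and ran from 1.90 to 130.8. The GNG13 site had the highest values, 137 and 125 without and 113 and 111 with doxycycline. The PEG3 site followed with 121 and 107 without and 120 and 109 with doxycycline. The BAK1 site had 111 and 105 without and 109 and 116 with doxycycline, and the SPACA5 site 99.4 and 104 against 105 and 108. These 4 sites had no H3K9me3 peak in any of the 5 H3K9me3 libraries and no OCT4 peak in either OCT4 library.

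The replicates of a site could differ. The ENSG00000231612 site in KIF26B had 122 and 75.9 without and 86.4 and 75.2 with doxycycline. The AL139239.1 site (chr10:99638329-99639891, in an intron of CRTAC1) had 70.2 and 113.9 without and 75.1 and 105.6 with doxycycline, so replicate 2 was the higher in both conditions. The ENSG00000203402 site (chrX:47179983-47181718), the FBLN5 site (chr14:92377631-92378843) and the ZNF157 site (chrX:47224964-47226637) had untreated values of 57.9 to 87.2. The API5P2 site (chr2:178837058-178838574, in an intron of PDE11A) had 75.8 and 65.2 without and 80.0 and 84.4 with doxycycline, and it was the only L1-type site among the 10 named for their strength. None of these 6 had an H3K9me3 or OCT4 peak either. Among the 100 strongest sites, 64 were L1-type, 35 were other sites, 1 was Alu-type and none was a guide-match site.

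Sites with more cores had the higher untreated medians. The 10445 sites without a core in the window had a median fold enrichment of 5.32 and 6.27 in the 2 libraries, the 10091 with 1 core had 5.90 and 7.46, the 582 with 2 had 6.06 and 8.11, and the 40 with at least 3 had 6.59 and 10.0. Over sites, the Spearman correlation of the fold enrichment was 0.635 between the untreated replicates. It was 0.789 and 0.824 between the untreated and the doxycycline library of the same number. These points share a genome, a peak caller and their selection, so the coefficients describe the lists only. Just inside the distance limit, at 1001 bp from a TSS, lay the CS (7.79 and 4.48), LINC02352 (7.38 and 16.1) and FDXR (3.60 and 3.52) sites, and just outside it the AC138123.1 (12.6 and 30.7) and FAM166C (7.36 and 4.84) sites at 999 bp and the KRT8P45 site (7.15 and 8.35) at 998 bp.

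**Figure D2:**
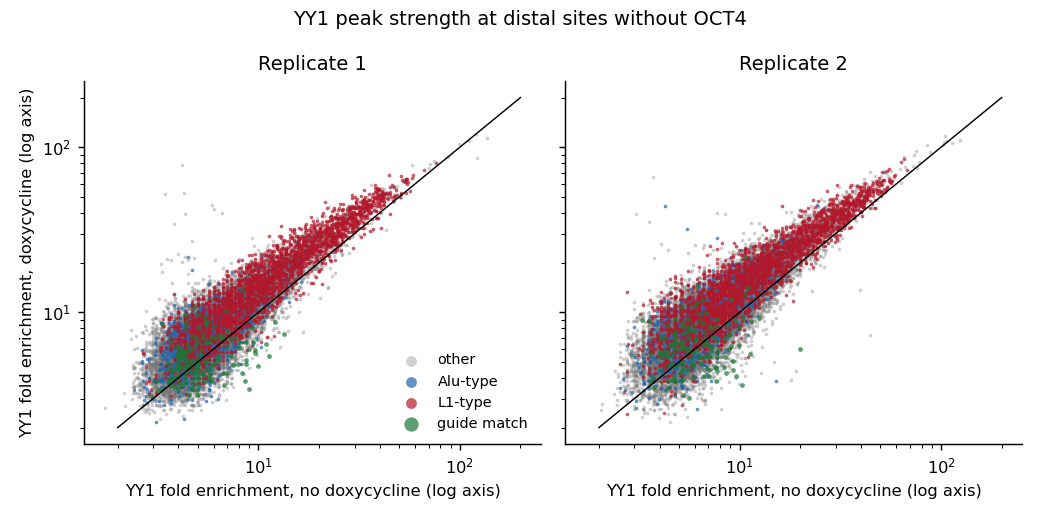
YY1 fold enrichment of each site with doxycycline (vertical log axis) against that without (horizontal log axis), in replicate 1 (left) and replicate 2 (right), for sites with a peak in both libraries. Colours mark the sets, the line is equality, and the strongest points are L1-type (red) and other (grey) sites while guide-match sites (green) had a median log2 ratio of 0.05 in both replicates.

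With doxycycline, 95.0% and 97.5% of the sites kept a YY1 peak, a mean of 96.3% ± 1.83 (SD, n = 2). The share was 93.2% and 97.7% at distal sites with OCT4 and 95.8% and 97.7% at promoter sites. Among sites with a peak in both conditions, the median log2 ratio of fold enrichment, doxycycline over none, was 0.37 and 0.39, and 82.9% and 83.6% of sites were higher. The ratio was 0.24 and 0.27 at distal sites with OCT4 and 0.25 and 0.32 at promoter sites, while the medians of the whole lists differed by -0.05 in both replicates. Sites chosen by peaks in the untreated libraries can only lose a peak, so no loss was tested. In the doxycycline libraries more peaks were called, and the part of peak number in the ratio was not tested.

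A YY1 peak was missing from both doxycycline libraries at 196 sites (0.926%, Wilson 95% interval 0.806 to 1.06%), against 0.946% of all shared sites. Of the 196, 131 were other sites, 56 were guide-match sites, 8 were Alu-type and 1 was L1-type. L1-type sites kept a peak in 99.4% and 99.7% of cases and Alu-type sites in 95.1% and 98.3%. Guide-match sites kept one in 65.3% and 61.6%, below each other set in both libraries. Their untreated YY1 peaks were also the weakest, with a median fold enrichment of 4.89 and 5.58. Alu-type sites had 5.30 and 6.71, other sites 5.36 and 6.62 and L1-type sites 9.87 and 10.6. A YY1 core lay within 100 bp of the summit at 2.89% of guide-match sites. The share was 52.3% at L1-type, 66.0% at Alu-type and 49.8% at other sites. The parts of peak strength and of the core in the kept share were not tested. The log2 ratio of the sites that kept a peak was 0.46 and 0.44 for L1-type, 0.38 and 0.44 for Alu-type, 0.35 and 0.37 for other and 0.05 and 0.05 for guide-match sites. The intervals cover counting error over sites only.

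OCT4 peaks with doxycycline were found at few of the sites. In that library, 171 sites (0.808%, interval 0.696 to 0.938%) overlapped an OCT4 peak, against 0.352% of promoter sites without OCT4. All shared YY1 sites stood at 10.6%, but they include sites chosen for an OCT4 peak without doxycycline, so nothing is read from that gap. With 1 library per condition there is no replicate check. The 5 strongest of these sites in YY1 were the ENSG00000285616 (chr5:40541068-40542272), ENSG00000276854 (chr13:44765392-44766435), ANKMY1 (chr2:241436127-241437099), RP11-397O4.1 (chr10:11097340-11098070) and ENSG00000240627 (chr5:50546268-50547460) sites. Their OCT4 fold enrichment was between 3.28 and 5.29, where the median of the OCT4 list was 5.58. The RP11-397O4.1 site, in an intron of CELF2, had YY1 values of 13.1 and 41.4 without and 18.8 and 56.6 with doxycycline. Of the 171 sites, 163 were other sites.

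H3K9me3 peaks overlapped a minority of the sites. The share was 11.9% in parental NCCITs, 17.7% and 16.3% in SCi-NCCITs without doxycycline and 13.1% and 15.6% with it. The means were 16.99% ± 0.952 and 14.3% ± 1.80 (SD, n = 2), a difference of -2.64 percentage points, and every doxycycline library was below every untreated one. The exact two-sided permutation test over the 4 libraries gave p = 0.333, the smallest it can give. The means of distal sites with OCT4 were 14.7% and 14.7%, and those of promoter sites were 4.05% and 3.37%. In parental NCCITs the share was higher farther from genes, from 6.25% of the 5343 sites at 1001 to 5000 bp from a TSS to 12.1% of 8226 sites up to 20000 bp, 15.7% of 4632 up to 50000 bp and 15.5% of 2957 beyond.

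**Figure D3:**
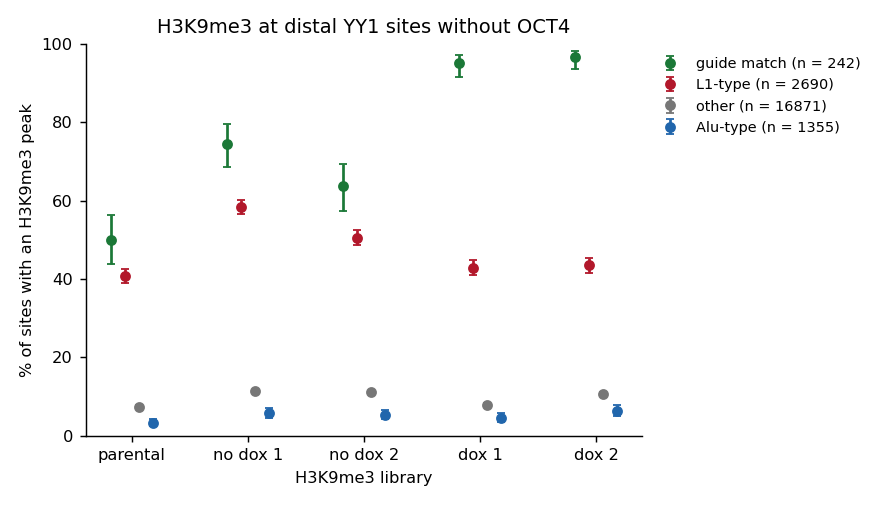
Share of sites with an H3K9me3 peak (vertical axis, %) in each of the 5 H3K9me3 libraries (horizontal axis) for the 4 sets of sites, with 95% Wilson intervals over sites as bars. Guide-match sites stood at 74.4% and 63.6% without and 95.0% and 96.7% with doxycycline, and L1-type sites at 58.4% and 50.6% without and 42.9% and 43.5% with it.

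L1-type and guide-match sites had the highest shares with the mark. L1-type sites had a peak in 40.8% of cases in parental NCCITs, in 58.4% and 50.6% without and in 42.9% and 43.5% with doxycycline, a difference of -11.3 points (exact permutation p = 0.333). With the same number of peaks taken from each library the shares were 54.0% and 42.4% without and 42.9% and 36.8% with doxycycline, so the groups overlapped and the difference was -8.38 points. Alu-type sites stood at 3.25% in parental cells, 5.76% and 5.24% without and 4.58% and 6.35% with doxycycline. Other sites stood at 7.44%, 11.3% and 11.1%, and 7.84% and 10.8%. Peaks in all 5 libraries were found at 1786 sites (8.44%, against 6.16% of all shared sites), of which 820 were L1-type, 828 other, 114 guide-match and 24 Alu-type.

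Peaks in both untreated libraries and in neither doxycycline library were found at 219 sites (1.04%, against 0.746% of all shared sites). Of these, 110 were L1-type, 106 were other, 3 were Alu-type and none was a guide-match site. The reverse, peaks in both doxycycline libraries and in neither untreated one, was found at 91 sites (0.430%, against 0.764% of all shared sites). Of these 91 sites, 47 were guide-match, 33 other, 8 Alu-type and 3 L1-type.

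Among the 4 sets, guide-match sites were the one with the higher mean H3K9me3 share with doxycycline. The mark lay on 121 of the 242 in parental cells, on 74.4% and 63.6% without and on 95.0% and 96.7% with doxycycline. The difference was 26.9 points, larger than the spread between replicates (SD 7.60 and 1.17 points, n = 2), and the exact permutation test again gave its smallest value, p = 0.333. The 242 guide-match sites among distal sites with OCT4 began lower, at 26.9% and 23.1%, and stood at 78.5% and 83.5% with doxycycline. Of the 242 sites without OCT4, 186 had an exact guide match, 46 had 1 mismatch, 7 had 2 and 3 had 3. The 186 stood at 73.7% and 65.1% without and 98.9% and 98.9% with doxycycline, while none of the 3 had an H3K9me3 peak in any SCi-NCCIT library.

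Per the study, the guides were designed on sequence that SVAs have in common with LTR5Hs, a family of retroviral repeats, and the 751 listed SVAs are only the de-repressed ones. A site far from a listed SVA can therefore still lie in an element the guides were meant for. Of the 242, 3 lay within 500 bp of one, 5 farther but within 10 kb, and 234 beyond, and these 234 held 55 of the 56 guide-match sites that lost YY1 and all 47 with the H3K9me3 gain. The genome holds 5794 guide matches, of which 695 lie inside the 751 listed SVAs, and the elements at the others were not analysed here.

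The 5 strongest guide-match sites in YY1 are given one by one. The AC013489.1 site (chr15:89083467-89084155, in an intron of DET1) had YY1 values of 13.4 and 24.3 without doxycycline, 7.36 in 1 doxycycline library and no peak in the other. It had H3K9me3 values of 9.83 and 8.78 with doxycycline and no peak in parental or untreated cells. The ENSG00000255119 site (chr11:67371512-67372182) and the GGTA1 site (chr9:124191041-124191813) had YY1 values of 7.98 to 16.4 without doxycycline and no YY1 peak with it. The ENSG00000285287 site (chr9:134231728-134232326, in an intron of PLPP7) kept YY1 at 5.43 and 6.03, from 11.3 and 19.9. The RPL13AP12 site (chr2:203399178-203399900, in an intron of BMPR2) was the only one of the 5 with an H3K9me3 peak in parental cells. All 5 had an H3K9me3 peak in both doxycycline libraries.

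An H3K9me3 gain did not always come with less YY1. The ENSG00000279602 site (chr17:41442806-41444135), the PPDPFP1 site (chr3:120096581-120097965), the ENSG00000229015 site (chrX:134541998-134542975) and the PDCL3P4 site (chr3:101412270-101412849) were named for their YY1 strength among the 91. None of them has a guide match within 500 bp of its summit. The ENSG00000279602 site had YY1 values of 29.8 and 32.9 without and 32.8 and 41.5 with doxycycline, and H3K9me3 values of 3.13 and 2.71 with doxycycline and 3.18 in parental cells. Its H3K9me3 values with doxycycline were below the medians of those lists, 4.77 and 4.40. At the PPDPFP1 site YY1 was also higher, at 35.9 and 26.5 without and 39.7 and 30.4 with doxycycline. At the ENSG00000229015 site YY1 was lower in both replicates, at 11.5 and 22.98 without and 6.86 and 13.4 with doxycycline. The PDCL3P4 site had YY1 values of 9.98 and 23.2 without and 13.1 and 18.4 with doxycycline, so only replicate 2 was lower. Of the 91 sites, 25 had no YY1 peak in either doxycycline library, and 15 of the 25 were guide-match sites.

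RNA was compared for the genes whose TSS is nearest to a site, with edgeR's quasi-likelihood test and Benjamini-Hochberg adjustment over all 16370 genes tested. In bulk RNA, fewer cells of a type and less RNA per cell cannot be told apart. The 21158 sites were nearest to 14449 genes, of which 5092 were expressed highly enough to be tested. At an adjusted p under 0.05, 378 of the 5092 (7.42%) were higher and 605 (11.9%) lower with doxycycline, against 8.97% and 8.49% of all genes tested, and 17.5% in either direction. The median log2 fold change was -0.04, against -0.00 over all genes. Near promoter sites, 446 of 4465 genes were higher and 385 lower, and near distal sites with OCT4, 138 of 1869 were higher and 323 (17.3%) lower.

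Of the 605 lower genes, 565 were nearest to no guide-match site, as were 4994 of all 5092 tested. The split counts guide matches within 500 bp of a summit, which 242 sites had, while 332 had one within 2000 bp. Guide matches away from the sites were not counted. The share of lower genes differed between the sets of sites. Of 98 tested genes nearest to a guide-match site, 40 (40.8%) were lower and 2 higher, and the median log2 fold change was -0.20. Of 36 nearest to a site that gained H3K9me3, 20 (55.6%) were lower and none was higher, with a median of -0.35. Of 87 nearest to a site that lost YY1, 24 were lower and 8 higher. These 3 sets share genes and are not independent. Of the 91 sites with the gain 47 were guide-match sites, as were 56 of the 196 that lost YY1. For L1-type sites, 60 of 583 (10.3%) were lower and 28 higher, and for Alu-type sites 93 of 658 (14.1%) were lower and 46 higher. Of 46 genes nearest to a site where H3K9me3 was absent with doxycycline in both libraries and present in both without, 3 were lower and 2 higher. The 565 were 11.3% of the 4994 tested genes nearest to no guide-match site, of which 376 were higher.

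**Figure D4:**
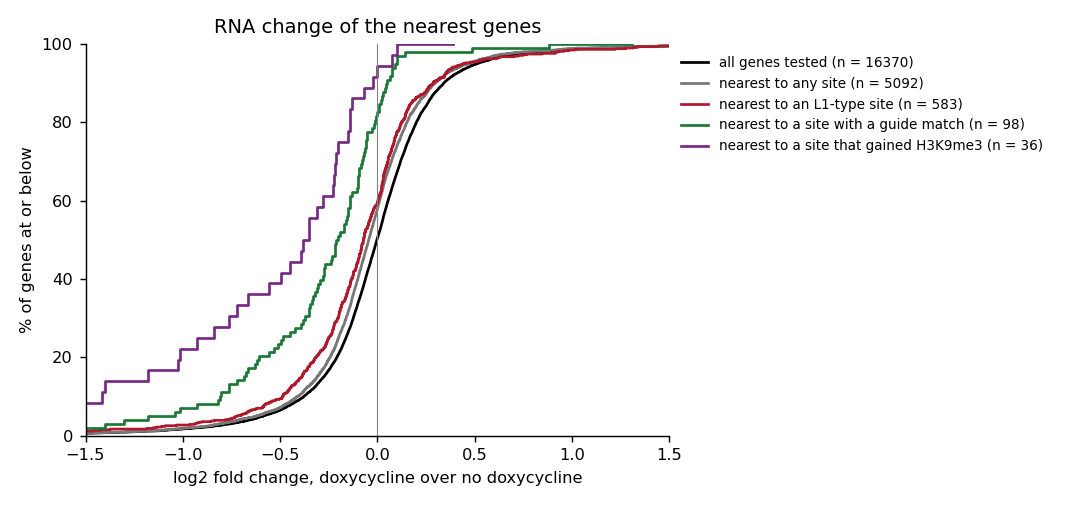
Cumulative share of genes (vertical axis, %) by log2 fold change of RNA, doxycycline over none (horizontal axis, which leaves out the few genes beyond its ends), for all genes tested (black) and genes nearest to any site (grey), to an L1-type site (red), to a guide-match site (green) and to a site that gained H3K9me3 (purple). The green and purple curves lie left of the others, with medians of -0.20 (n = 98) and -0.35 (n = 36), and their gene sets overlap.

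Genes nearer to a guide-match site were lower in a larger share, a difference that was not tested. Within 10 kb of the TSS, 25 of 49 tested genes (51.0%) were lower, and beyond 10 kb, 17 of 53 (32.1%), and some genes had sites in both ranges. When only protein-coding TSSs were used, 75 of 208 genes (36.1%) were lower and 7 higher. Of the protein-coding genes nearest to any site, 840 of 7112 (11.8%) were lower, and of all protein-coding genes 8.68%.

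The 10 largest rises among genes nearest to a site were taken by rule. SFXN3, a mitochondrial sideroflexin, had 0.682, 0.252 and 0.488 CPM without and 23.2, 6.03 and 18.5 CPM with doxycycline, a log2 fold change of 5.17 (SE 0.60, adjusted p = 0.000586). IL23R, the receptor of interleukin 23, went from 0.273, 0.284 and 0.232 CPM to 6.62, 8.52 and 6.85 CPM (4.81, SE 0.20, adjusted p = 8.56e-07). Both genes were close to silent in every untreated library. GRIA3, an AMPA glutamate receptor subunit, rose by 2.64 (SE 0.23), and the site in its intron had YY1 values of 15.8 and 9.68 without and 17.004 and 17.5 with doxycycline. DTX4, a ubiquitin ligase of the Notch pathway, had 13.7 to 15.1 CPM without and 64.3 to 73.2 CPM with doxycycline (2.27, SE 0.07, adjusted p = 2.34e-07), and its site lies 1318 bp from the TSS.

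OLFML2A rose by 3.16 (SE 0.13) beside an Alu-type site, and MARCO, a macrophage scavenger receptor, by 2.05 (SE 0.10) with an L1-type site 40867 bp away. NPC1L1, the intestinal cholesterol transporter, rose by 2.18 (SE 0.09), FAM43A by 2.07 (SE 0.14) and DENND2D by 1.90 (SE 0.22). NTM, a neural cell adhesion molecule, rose by 1.84 (SE 0.13) and is nearest to 7 sites, the strongest at 22.9 and 21.0 without and 34.0 and 25.7 with doxycycline.

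The 10 largest falls were taken by the same rule. CILP, a cartilage matrix protein, had 38.9, 47.6 and 30.9 CPM without and 1.78, 1.53 and 1.45 CPM with doxycycline (log2 fold change -4.62, SE 0.18, adjusted p = 8.56e-07), and its site 5478 bp away had YY1 values of 6.00 and 4.48 without and 6.15 and 8.78 with doxycycline. CRYAA, a lens chaperone, fell from 3.95 to 4.95 CPM to 0.170 to 0.356 CPM (-3.88, SE 0.25). PIFO, a gene linked to primary cilia, had 40.2, 50.7 and 44.3 CPM without and 7.04, 7.37 and 6.68 CPM with doxycycline (-2.69, SE 0.10, adjusted p = 5.96e-07), beside an L1-type site.

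ABCC2, a drug and bile salt exporter, changed by -3.61 (SE 0.29), TRPC6, a cation channel, by -2.90 (SE 0.25) with L1-type sites in its intron, and NECAB1, a calcium-binding protein of neurons, by -2.80 (SE 0.23). ANKDD1B changed by -2.49 (SE 0.19), and its L1-type site is the strongest near these 20 genes, at 24.9 and 46.8 without and 30.6 and 47.6 with doxycycline. ATP8A2, a phospholipid flippase, had 3.95 to 4.48 CPM without and 0.921 to 1.13 CPM with doxycycline. NOX5, an NADPH oxidase, changed by -1.91 (SE 0.26) and TFAP2B, a developmental transcription factor, by -1.82 (SE 0.15). None of these 20 genes was nearest to a guide-match site, a site that lost YY1 or a site that gained H3K9me3. This covers only the 21158 sites and guide matches within 500 bp of their summits. Guide matches elsewhere, including those at 242 distal sites with OCT4, were not set against the 20 genes. All 20 were called in 6 of 6 fits that left out 1 library.

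**Figure D5:**
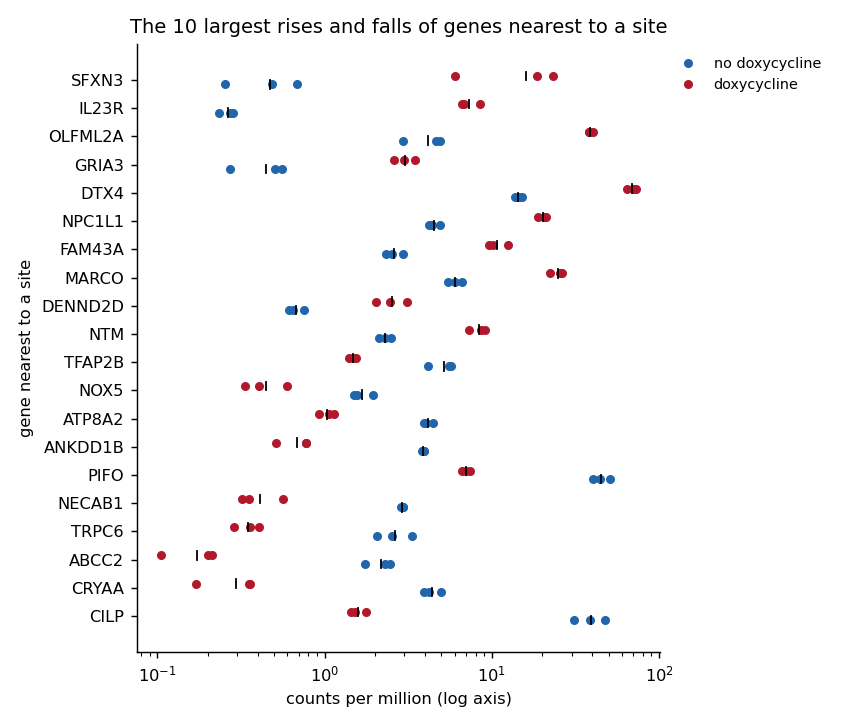
RNA level in CPM (horizontal log axis) of the 10 genes with the largest rises and the 10 with the largest falls among genes nearest to a site (vertical axis), in 3 libraries without (blue) and 3 with doxycycline (red). Points are libraries, black ticks are means, and the rule that named the 20 genes asks for conditions that do not overlap.

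Of the 8 genes nearest to or holding the strongest sites that are given here and could be tested, 3 passed the test, against 17.5% of all genes. PEG3 had 40.0, 49.3 and 42.8 CPM without and 25.3, 27.6 and 30.6 CPM with doxycycline (log2 fold change -0.67, SE 0.09, edgeR adjusted p = 0.00177). KIF26B, which holds the ENSG00000231612 site, had 27.9 to 29.7 CPM without and 16.1 to 17.7 CPM with doxycycline (-0.75, SE 0.07, adjusted p = 0.000123). GGNBP1, which holds the BAK1 site, had 3.60 to 4.23 CPM without and 12.5 to 15.5 CPM with doxycycline (1.84, SE 0.11, adjusted p = 1.31e-05). BAK1, a pro-apoptotic BCL2 relative, had a log2 fold change of 0.13 (SE 0.08, adjusted p = 0.311), ZNF630 of 0.35 (adjusted p = 0.272), FBLN5 of 0.43 (adjusted p = 0.285), PDE11A of -0.07 (adjusted p = 0.881) and ZNF157 of -0.25 (adjusted p = 0.463). GNG13, SPACA5, API5P2, CRTAC1 and ZIM2 were below the filter on low counts.

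At the other named sites, DET1 changed by -0.33 (SE 0.08, adjusted p = 0.0258, lost without any of 3 libraries), and PDCL3P4, a pseudogene of low count at a site that gained H3K9me3, by -2.27 (SE 0.45, adjusted p = 0.00902). ANKMY1 changed by 0.35 (SE 0.10, adjusted p = 0.0405), a call lost on leaving out any of the 6 libraries. RPL13AP12, a ribosomal protein pseudogene, had 0.126 to 0.139 CPM without and 0.272 to 0.383 CPM with doxycycline (1.31, SE 0.37, adjusted p = 0.0409), a call also lost without any 1 library, and reads of a pseudogene can come from its parent gene. BMPR2, whose intron holds the RPL13AP12 site, stood at -0.10 (adjusted p = 0.518), PLPP7 at 0.07 (adjusted p = 0.735), TTC33 at -0.08 (adjusted p = 0.521) and CELF2 at -0.30 (adjusted p = 0.230).

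The genes nearest to guide-match sites are described next, and those named were chosen after their values were seen. RAB15, a small GTPase, had 93.0, 95.3 and 80.6 CPM without and 36.0, 33.1 and 32.7 CPM with doxycycline (-1.40, SE 0.08, adjusted p = 5.02e-06). Its intronic site (chr14:65446098-65446385) had no H3K9me3 peak without and 6.57 and 13.2 with doxycycline, and kept YY1 in 1 of 2 libraries. WDHD1, a replication factor, had 151, 166 and 148 CPM against 77.2, 79.5 and 87.9 CPM (-0.93, SE 0.07). Its site (chr14:55491006-55491417) had H3K9me3 values of 5.48 and 13.8 with doxycycline and no peak without, and a YY1 peak of 12.7 remained in 1 library. GGT5 changed by -1.01 (SE 0.20) and REEP1, a protein of the endoplasmic reticulum, by -0.72 (SE 0.14), and both also had a site that gained H3K9me3.

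A second group had H3K9me3 at the site in both conditions and no YY1 peak with doxycycline. INPP5F, a phosphoinositide phosphatase, had 63.4 to 69.8 CPM without and 30.3 to 34.8 CPM with doxycycline (-1.04, SE 0.07), and its site (chr10:121481782-121482256) had H3K9me3 values of 13.04 and 12.7 without and 18.8 and 10.9 with doxycycline. F2RL1, a protease-activated receptor, had 32.1 to 35.2 against 17.4 to 20.4 CPM (-0.82, SE 0.08), and PPARD, a nuclear receptor, changed by -0.62 (SE 0.05). The PPARD site had the mark in replicate 1 only, at 12.1 without and 11.6 with doxycycline. SIL1, a chaperone cofactor, went the other way, from 23.5 to 26.6 CPM without to 45.0 to 47.5 CPM with doxycycline (0.88, SE 0.06), at a site that also lost YY1.

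At the guide-match sites of another group of genes, the mark and YY1 were present in both conditions in at least 1 library. JARID2, a subunit of the Polycomb complex PRC2, had 292 to 317 CPM without and 185 to 213 CPM with doxycycline (-0.61, SE 0.07), with its site 85874 bp from the TSS. KDM4C, an H3K9 demethylase, had 75.1 to 81.1 against 47.1 to 50.9 CPM (-0.68, SE 0.06). EPHA7, an ephrin receptor, had 13.1 to 15.4 against 5.29 to 6.26 CPM (-1.30, SE 0.10), and the cell cycle factor E2F2 13.6 to 16.97 against 6.46 to 6.70 CPM (-1.18, SE 0.10). E2F2 is nearest to another site, 13794 bp from a TSS, that lost YY1 and gained H3K9me3, while its guide-match site lies 14902 bp from a TSS. The other site has no guide match within 500 bp of its summit, and matches farther off were not examined for it. HORMAD1, a meiotic chromosome protein, had 0.348 to 0.568 against 0.0209 to 0.106 CPM and was called lower.

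YY1 itself did not pass the test. Its level was 136, 141 and 140 CPM without and 133, 125 and 134 CPM with doxycycline (log2 fold change -0.10, SE 0.05, edgeR adjusted p = 0.202), and YY2 stood at -0.00. ZFP42, the YY1 relative of pluripotent cells, had 49.2 to 50.9 CPM without and 37.01 to 40.4 CPM with doxycycline (-0.40, SE 0.06, adjusted p = 0.00168), so 1 of 3 family members was lower. POU5F1 had 240, 176 and 169 CPM without and 200, 169 and 171 CPM with doxycycline (-0.12, SE 0.12, adjusted p = 0.527), and 0.04 without RNA no doxycycline replicate 1. The conditions overlapped for POU5F1.

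The counts below are to be read against 8.97% of all genes called higher and 8.49% called lower. Of the 14 INO80 subunits, INO80C was higher (0.36) and INO80 lower (-0.33). Of 11 Polycomb partners, EED was higher (0.19), and RYBP (-0.37), MBTD1 (-0.30), SFMBT2 (-0.33) and EZH2 (-0.38) were lower. Of 12 looping factors, none was higher, and CTCF (-0.23), RAD21 (-0.20), STAG1 (-0.34) and PDS5B (-0.29) were lower. Of 10 coactivators and repressors that bind YY1, none was higher, and EP300 (-0.38), CREBBP (-0.34) and SIN3A (-0.30) were lower. INO80, INO80C, EED, MBTD1, CTCF, RAD21, STAG1, PDS5B and EP300 each lost their call on leaving out any of 2 to 5 of the libraries. The medians of the lists were 0.09, -0.15, -0.17 and -0.02, against -0.00 over all genes.

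Markers of cell state moved with doxycycline too, and their part in the changes near the sites was not tested. Of the 10 pluripotency markers 5 were lower, NANOG (-0.57), TDGF1 (-1.13), DNMT3B (-0.60), PROM1 (-1.28) and SALL4 (-0.22), and none was higher, against 8.49% and 8.97% of all genes. GATA6 (1.46), MIXL1 (0.55) and NES (0.47) were the only higher markers of endoderm, mesoderm and ectoderm, where the endoderm markers summed to 0.940 to 1.63 CPM without and 2.87 to 3.36 CPM with doxycycline. SALL4 lost its call without any of 5 libraries, MIXL1 without any of 4 and NES without 1. SOX17, AFP, TBXT, SOX1 and NEUROD1 were below the filter. The mesoderm markers summed to 130.9 to 181 against 144 to 162 CPM and those of ectoderm to 381 to 438 against 495 to 664 CPM. Most of each sum came from 1 gene. HAND1 had 122 to 169 against 134 to 150 CPM in the mesoderm sum. NES had 380 to 437 against 493 to 663 CPM in the ectoderm sum. None of the trophoblast, germ cell and fibroblast markers tested was called.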

How the data were processed

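From NCCITs and SCi-NCCITs, 11 ChIP-seq libraries (of H3K9me3, of YY1 and of OCT4) and 6 RNA-seq libraries were used. ChIP-seq libraries whose label has no replicate number were called replicate 1. For ChIP-seq the authors trimmed the reads, aligned them to hg19 with BWA MEM, dropped duplicates and alignments of a mapping quality of 10 or less, and made each sample's peak list at a 5% FDR, so that reads from near-identical repeat copies can be missing. The deposited lists give each summit's fold enrichment as a ratio and p- and q-values as −log10. No reads were processed here. The RNA files, as deposited, hold estimated counts per transcript from kallisto, with TPM beside them, without further normalization. 16 columns of a YY1 HiChIP table could not be assigned to samples and were not used.

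Sites, their summits and the nearest TSS were computed with Python 3.11.15, numpy 2.4.6 and pandas 2.3.3, with GENCODE transcripts on hg19. An overlap of 1 bp or more with a peak counted as carrying it, and its fold enrichment was that of the highest overlapping peak. Shares have 95% Wilson intervals, which cover counting error only. Sequences were read from hg19 with pysam 0.24.0, and 5 of the 20 recurring stretches are printed. Conditions were compared by the exact two-sided permutation test over libraries, for which 2 against 2 allows no p below 0.333.

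Estimated counts were summed per gene, rounded to whole numbers and put through the quasi-likelihood test of edgeR 4.0.16 (R 4.3.3) after filterByExpr and TMM scaling, with Benjamini-Hochberg adjustment at a threshold of 0.05, over 16370 of 36084 genes. Of 188753 transcripts, 166506 matched the annotation, holding 95.9% to 96.0% of the counts. CPM values use TMM library sizes, except those of YY1, ZFP42, POU5F1 and the cell state markers. The latter were scaled to the library's summed gene counts without TMM. Overlap and RNA steps were tested on simulated data. Same-numbered RNA libraries of the 2 conditions deviated from their group means with correlations of 0.13, 0.08 and -0.00, so the numbers were not taken as pairs.

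The sites, lists and tests were chosen with earlier results of these data known. Named by rule were the 10 sites with the highest mean untreated YY1 fold enrichment, the 5 highest each among guide-match sites, sites with H3K9me3 gain and sites with OCT4 under doxycycline, the sites beside the distance limit, the nearest genes of these, and the 10 largest rises and falls among called nearest genes whose mean reached 1 CPM and whose conditions did not overlap. Genes holding a site and the genes nearest to guide-match sites were added after their values were seen, as were the L1 and Alu names. The alternatives were a −log10 q of at least 5, 50% overlap, equal numbers of peaks, other distances and annotations, DESeq2 1.42.0, its size factors, other filters, a replicate block, each library left out in turn and a minimum log2 fold change of 0.5.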

Additional observations from a re-analysis of the deposited data

How the results depend on the processing

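Limits: the sites were called on 2 libraries, the lists give no depth, sites in repeats depend on uniquely mapped reads, and the nearest gene need not be a target. Without replicate 1 or 2 the rule found 31616 to 46683 sites. YY1 occupancy with doxycycline was 92.5% at 50% overlap, 87.0% with equal numbers of peaks and 95.0 to 97.5% without a replicate. The share with OCT4 was 0.644% at a −log10 q of 5 and 0.312% at 50% overlap, and that with a YY1 core was 40.1% within 50 bp. The H3K9me3 difference was -2.64 points with the replicate block, -1.78 with equal numbers of peaks and -4.59 to -0.70 without a replicate. Without a replicate, that of L1-type sites was -15.5 to -7.03 and that of guide-match sites 20.7 to 33.1.

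The 196 sites without YY1 became 102 at a −log10 q of 5, 499 at 50% overlap, 1202 with equal numbers of peaks and 519 to 1067 without a replicate, and the 56 guide-match sites among them 103 with equal numbers and 84 to 93 without a replicate. The 91 sites with H3K9me3 gain became 221 to 553 and the 47 guide-match sites 52 to 80 without a replicate. A count that asks for both replicates grows by construction when 1 is left out. These 4 counts and their alternatives were chosen after the data were seen.

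The 983 called genes nearest to a site became 1165 with the replicate block, 352 at a log2 fold change of at least 0.5 and 504 to 1109 without a library, with 537, 621, 651 and 504 without RNA no doxycycline replicates 2 and 3 and doxycycline replicates 1 and 2. The 605 lower genes became 728 with the block, 220 at 0.5 and 311 to 702 without a library. The 40 lower genes near guide-match sites became 43 with the block, 21 at 0.5, 75 with protein-coding TSSs and 29 to 43 without a library, and the 20 near sites with H3K9me3 gain 21, 12, 34 and 14 to 21. Over 92 genes and 1001 values, 881 kept direction and side of the threshold, 119 (26 genes) lost the call, 107 of them on leaving out a library, and 1 reversed, POU5F1, at a log2 fold change of 0.043 without RNA no doxycycline replicate 1 (-0.21 to 0.043 over the libraries left out). ANKMY1, CIROP and RPL13AP12 lost their call with the block. The causes of the other changes were not tested.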
